A study of Homo sapiens with 24 samples.

Results

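Oxidative phosphorylation in the mitochondrial inner membrane is run by respiratory complexes I to IV and by ATP synthase, which is also called complex V. The members described here are the protein-coding nuclear genes for the subunits of these complexes. The members were chosen by gene symbol in both count tables, without a cut on measured values but with earlier results of these data known. They were the genes named NDUFA, NDUFB, NDUFC, NDUFS or NDUFV with a number, NDUFAB1, the SDH, UQCR and CYC1 genes, the common COX subunit genes, and genes whose symbols start with ATP5F1, ATP5M or ATP5P. Of 80 symbols found, 1 was the read-through gene ATP5MF-PTCD1, which was set aside, so that 79 of 57992 genes were members. Complex I had 37 of them, complex II 4, complex III 9, complex IV 11 and complex V 18. NDUFA4, once listed with complex I, was counted with complex IV.

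The cells were K562, an established human chronic myelogenous leukaemia line, that carried a doxycycline-induced CRISPR interference system, in which a guide RNA brings a repressor to a promoter. They held either sgDDX3, a guide against the X-linked RNA helicase gene DDX3X, or the control guide sgGal4, and were taken at days 0, 3 and 14 of knockdown. At each day, 2 libraries per guide were made of ribosome footprints, the stretches of mRNA that ribosomes shield from RNase, and 2 of cytosolic RNA, giving 12 groups and 24 libraries. The labels give 50 ng/ml doxycycline for all samples and do not state whether day 0 cells had received it, nor whether a group's 2 replicates came from separate cultures or whether a line was 1 clone, so that the spread behind each p-value is that between these libraries and may be technical alone.

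Complexes I and II pass electrons from NADH and succinate to ubiquinone, complex III passes them to cytochrome c, and complex IV gives them to oxygen. Complexes I, III and IV pump protons, and ATP synthase uses the gradient to make ATP. Nearly all subunits are made from nuclear mRNAs on cytosolic ribosomes and imported, while a small core is encoded and translated inside the mitochondrion; complex II has none of these. DDX3X acts in the start of translation on cytosolic ribosomes.

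Library totals were 1.03e+07 to 4.33e+07 counts for RNA and 6.22e+06 to 1.52e+07 for footprints. Levels are given as counts per 1e+06 counts (CPM), scaled within each assay by the trimmed mean of M values. DDX3X RNA was 175 and 185 CPM in sgDDX3 cells, against 215 and 203 CPM in sgGal4 cells at day 0, 39.0 and 33.7 CPM in sgDDX3 cells, against 185 and 174 CPM in sgGal4 cells at day 3 and 134 and 102 CPM in sgDDX3 cells, against 201 and 187 CPM in sgGal4 cells at day 14. It was thus 4.89-fold lower with sgDDX3 at day 3 (edgeR adjusted p = 1.6e-11) and 1.65-fold lower at day 14 (adjusted p = 4.03e-05), and its footprints were 4.12-fold and 1.53-fold lower. Of the erythroid markers of K562, GATA1 had 161 to 192 CPM and TFRC 624 to 1106 CPM in RNA, while HBG1 was at most 0.289 CPM. How reads that match several places were counted is not given, so the HBG1 value is uncertain. Markers of other cell types were low (CD14 at most 0.164 CPM, PECAM1 at most 0.425 CPM, PTPRC at most 1.97 CPM), except EPCAM with 23.1 to 32.4 CPM. Some markers moved with the guides: among the erythroid markers, KLF1 and HBG2 fell in RNA at day 3, and TFRC rose in RNA at day 14 and in footprints at day 3. Of 6 markers of other types tested, ALB, at most 2.34 CPM, rose in RNA and footprints at day 3, and EPCAM fell in RNA at day 14. The part of these in the results was not tested.

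The members took 0.842 to 0.955% of RNA counts and 1.34 to 1.61% of footprint counts in each library. All 3 genes taken as markers of the set were well measured in every library: NDUFA4 had 104 to 150.0 CPM of RNA, COX4I1 264.5 to 310 CPM and ATP5F1B 835 to 977 CPM. After the filter on low counts, 78 members were tested in RNA (ATP5MGL was not), 78 in footprints (NDUFA7 was not) and 77 in both. NDUFA7 had at most 1.38 CPM in RNA and 0.505 CPM in footprints, and ATP5MGL at most 0.966 CPM in RNA and 21.9 CPM in footprints. The count of a gene per library says nothing of how it is spread over cells, so that fewer cells with the RNA and less RNA per cell cannot be told apart.

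At day 3, the RNA of the nuclear subunits was on the whole close to that of the control cells. NDUFS1 and ATP5F1A rose in sgDDX3 cells, and NDUFS4, NDUFB11 and UQCRC2 fell. These 5 are 6.41% of the 78 members tested, while 14.1% of all 18287 genes passed (7.68% higher and 6.39% lower). The median log2 difference (sgDDX3 over sgGal4) was -0.0020 over the members and -0.0062 over all genes. The median size of the difference, whatever its sign, was 0.082 over the members and 0.192 over all genes (0.057 and 0.1 at day 0). The libraries of the guides did not overlap for 9 members that were higher and 16 that were lower, where all genes gave 26.3% and 27.4%. Fewer members passed without sgDDX3 replicate 2 or without sgGal4 replicate 2, with the counts over all genes in those fits not given.

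At day 14, 7 subunits fell in RNA and none rose. They were NDUFS4, NDUFB3, NDUFB4 and NDUFB11 of complex I, and ATP5MC2, ATP5PB and ATP5MJ of ATP synthase. This is 8.97% of the members, against 14.6% of all genes (8.44% higher and 6.18% lower). In all, 58 of 78 members lay below 0, the median was -0.080 over the members and -0.0076 over all genes, and 30 members were lower with no overlap (25.6% of all genes). The 2 sgDDX3 RNA libraries of this day stood apart from each other, with ATP5F1C at 97.2 and 130.5 CPM and COX7B at 58.3 and 81.1 CPM in replicates 1 and 2. More members passed without sgDDX3 replicate 2, in both directions, and fewer without either sgGal4 library. The counts over all genes in those fits are not given, so this is not read as a result about the members. NDUFS4 and NDUFB11 passed as lower at both days. At day 0 no member passed in RNA (edgeR; 2 at an unadjusted p under 0.05 and 0 by DESeq2; 0.00547% of all genes passed), though 62 of 78 lay below 0 and 37 were lower without overlap, where all genes gave 19.2%.

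In footprints at day 3, COX6C and COX7B of complex IV and NDUFA5 of complex I rose in sgDDX3 cells, and no subunit fell. These 3 are 3.85% of the 78 members, and 3.8% of all 19780 genes passed (1.55% higher and 2.25% lower), so the share of calls was near the background. Most other members also lay higher: 64 of 78 were above 0, with a median of 0.13 over the members and 0.021 over all genes, and for 45 members both sgDDX3 libraries lay above both sgGal4 libraries, where all genes gave 25.4%. For 6 members both lay below (22.3%). The calls depended on single libraries: COX6C alone passed without sgDDX3 replicate 1, and 0 members without sgDDX3 replicate 2 or without either sgGal4 library, where, with the 4 libraries left out in that order, the calls over all genes numbered 726, 401, 119 and 135 in place of 752. The members' median ranged from 0.10 to 0.13 in these 4 fits.

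At day 14 the footprints of the subunits differed little between the guides. No member passed (edgeR; 6 at an unadjusted p under 0.05, 0 by DESeq2; 3.4% of all genes passed, 2.11% higher and 1.29% lower), the median was 0.020 over the members and 0.0043 over all genes, and 14 members were higher and 14 lower without overlap (23.5% and 20.6% of all genes). The change of the guide difference between day 14 and day 3 was tested directly. No member passed in footprints (edgeR; 8 at an unadjusted p under 0.05, 0 by DESeq2; 0.126% of all genes) or in RNA (0 at an unadjusted p under 0.05, 0 by DESeq2; 0.164% of all genes). At day 0 no member passed in footprints (edgeR; 2 at an unadjusted p under 0.05, 0 by DESeq2; 0.0101% of all genes), with 6 members higher and 23 lower without overlap (18% and 19.3% of all genes).

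**Figure D1:**
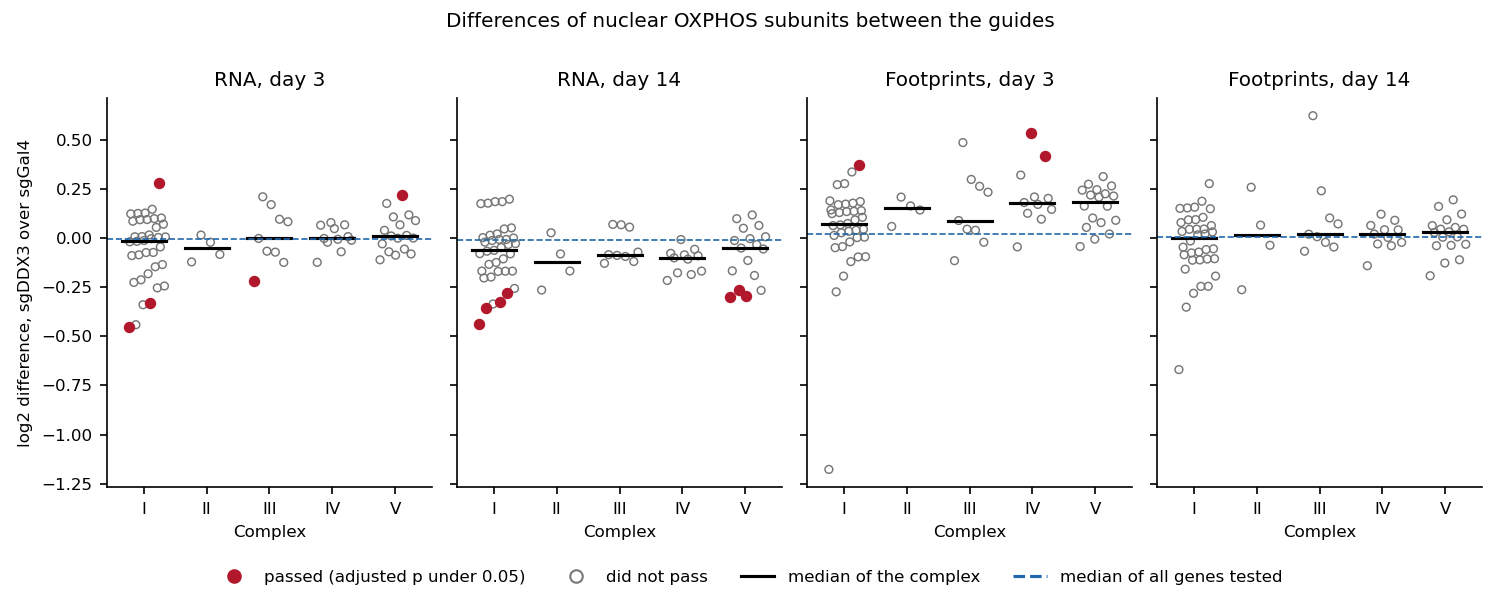
Log2 difference of each member tested (sgDDX3 over sgGal4, vertical axis) by complex, in RNA and footprints at days 3 and 14; red points passed the edgeR test, black bars are complex medians and the dashed line is the median of all genes tested. At day 3 the footprint medians of all complexes lie above 0, with COX6C at 0.53, while at day 14 the RNA medians of all complexes lie below 0.

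Summed over the members, day 3 footprints were 15841 and 16197 CPM in sgDDX3 cells, against 14347 and 14554 CPM in sgGal4 cells, a ratio of 1.11. Both sgDDX3 libraries lay above both sgGal4 libraries. With libraries scaled by their total count alone, this ratio was 1.06. The RNA sums overlapped, with 9053 and 9506 CPM in sgDDX3 cells, against 8694 and 9465 CPM in sgGal4 cells. At day 14 the footprint sums overlapped too, at 14411 and 13711 CPM in sgDDX3 cells, against 14174 and 13653 CPM in sgGal4 cells.

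By complex, the footprints of complex IV summed to 3609 and 3611 CPM in sgDDX3 cells at day 3, against 3097 and 3094 CPM in sgGal4 cells (ratio 1.17, or 1.11 with the total count alone), and those of complex V to 5484 and 5805 CPM in sgDDX3 cells, against 4955 and 5098 CPM in sgGal4 cells (ratio 1.12, or 1.07). The ratio was 1.11 for complex II, 1.08 for complex III and 1.06 for complex I, the last falling to 1.01 with the total count alone. In RNA at day 14, complex IV summed to 1538 and 1461 CPM in sgDDX3 cells, against 1628 and 1620 CPM in sgGal4 cells, a ratio of 0.923 without overlap. Complexes II (0.942) and V (0.981) and all members (0.966) were also lower without overlap, while complexes I and III overlapped. At day 0 the RNA sums of every complex were already lower without overlap (complex IV 0.979, all members 0.970). So were the day 0 footprint sums of all members (0.979) and of every complex but V.

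**Figure D2:**
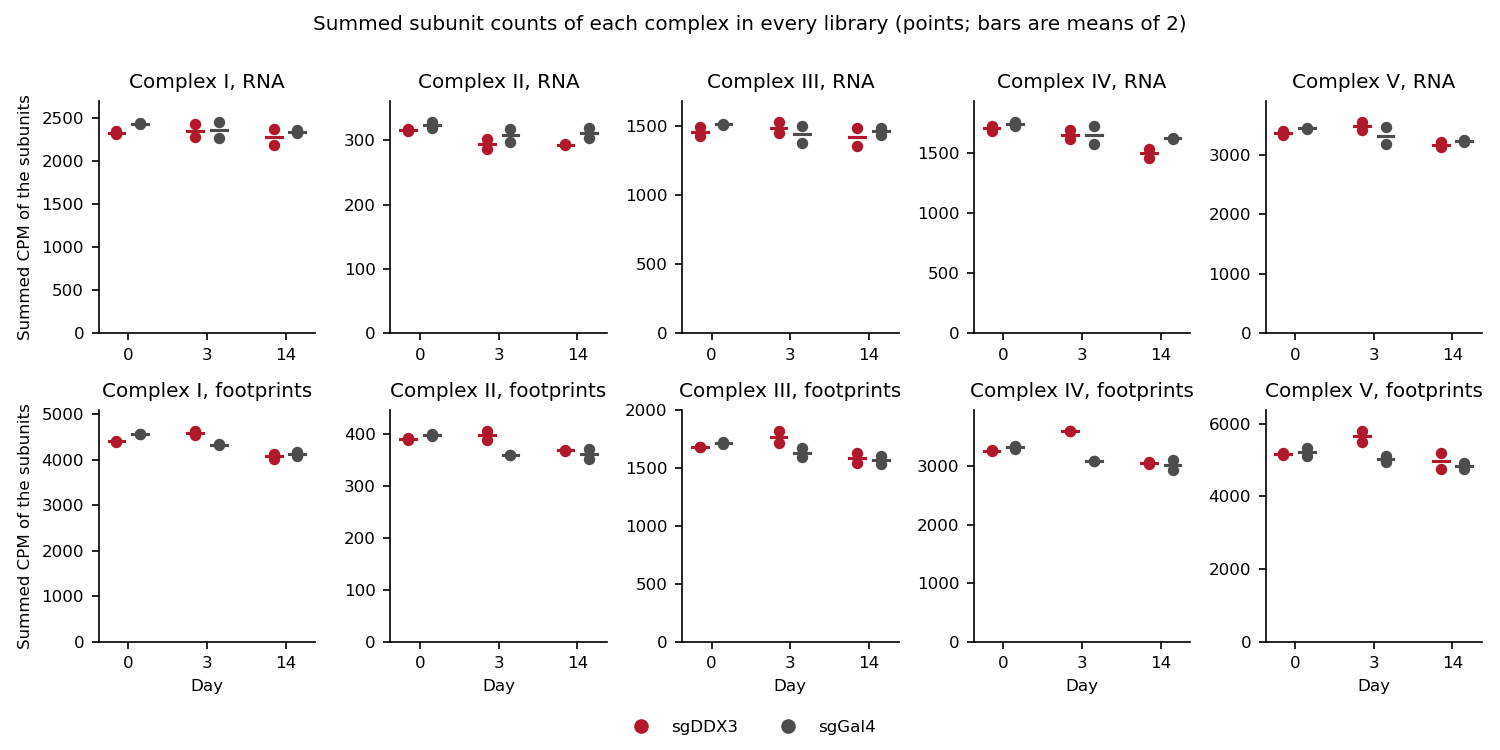
Summed CPM of the members of each complex in every library, in RNA (top row) and footprints (bottom row), by day; points are libraries, sgDDX3 left of sgGal4, and bars are means of 2. The sgDDX3 footprint sums of complex IV at day 3, 3609 and 3611 CPM, lie above all other footprint sums of that complex.

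Translational efficiency sets footprints against RNA of the same gene, and its difference between the guides was tested as an interaction of guide with assay. At day 0 no member passed (edgeR; 1 at an unadjusted p under 0.05, 0 by DESeq2), and 0.00673% of all genes did. No member passed at day 3 (edgeR; 14 at an unadjusted p under 0.05; by DESeq2 1, which was COX6C), where 5.41% of 14853 genes passed and 4.87% passed as lower. The median was 0.13 over the members and 0.031 over all genes, and 62 of 77 members lay above 0. No member passed at day 14 (edgeR; 5 at an unadjusted p under 0.05, 0 by DESeq2; 1.72% of all genes, 0.39% higher and 1.33% lower), with a median of 0.093 over the members and 0.0295 over all genes. Across the 77 members, RNA and footprint differences correlated with Pearson's r of 0.494 and Spearman's rho of 0.351 at day 3, and 0.338 and 0.378 at day 14, as a description, since each pair of values comes from the same few libraries.

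Within complex I, the NADH dehydrogenase, 3 subunits passed in RNA at day 3 and 4 at day 14. These are 8.11% and 10.8% of the 37 tested, where 14.1% and 14.6% of all genes passed. NDUFS4, an accessory subunit of the matrix arm that is needed for a stable NADH-binding module, had, in RNA at day 3, 17.6 and 17.3 CPM in sgDDX3 cells, against 23.7 and 24.2 CPM in sgGal4 cells, and 15.2 and 18.1 CPM in sgDDX3 cells, against 21.8 and 23.0 CPM in sgGal4 cells at day 14. Both sgDDX3 libraries lay below both sgGal4 libraries at each day, and at day 0 the guides overlapped at 22.8 and 23.3 CPM in sgDDX3 cells, against 25.1 and 21.4 CPM in sgGal4 cells. At day 3 the log2 difference was -0.45 ± 0.11 (SE; edgeR adjusted p = 0.00557), and at day 14 it was -0.44 ± 0.11 (adjusted p = 0.0124). The day 3 call held in all 10 alternatives tried, with adjusted p of 0.00323 to 0.0496; the day 14 call was not kept without sgDDX3 replicate 1 or sgGal4 replicate 2 (0.00463 to 0.146 over the alternatives). Its footprints did not follow at day 3, with 61.6 and 52.9 CPM in sgDDX3 cells, against 61.3 and 51.5 CPM in sgGal4 cells, which overlap (log2 difference 0.013 ± 0.12, adjusted p = 0.971). At day 14 they were 47.7 and 42.3 CPM in sgDDX3 cells, against 54.0 and 52.8 CPM in sgGal4 cells (adjusted p = 0.338). The difference in efficiency at day 3, 0.44 ± 0.16, was the highest in complex I and did not pass (adjusted p = 0.137).

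NDUFB11, an accessory subunit of the membrane arm encoded on the X chromosome, had, in RNA at day 3, 53.0 and 52.0 CPM in sgDDX3 cells, against 62.1 and 70.9 CPM in sgGal4 cells, and 49.4 and 48.0 CPM in sgDDX3 cells, against 58.3 and 59.9 CPM in sgGal4 cells at day 14. The guides did not overlap at either day. The log2 differences at days 3 and 14 were -0.33 ± 0.079 (edgeR adjusted p = 0.00721) and -0.28 ± 0.083 (adjusted p = 0.0257). At day 0 NDUFB11 RNA was also lower without overlap, with means of 59.6 CPM in sgDDX3 cells, against 63.8 CPM in sgGal4 cells (-0.097 ± 0.079). The day 3 call was not kept without sgGal4 replicate 2 (0.00589 to 0.117 over the alternatives), and the day 14 call without sgDDX3 replicate 2 or either sgGal4 library (0.0216 to 0.187). Its footprint differences were -0.095 ± 0.099 at day 3 and -0.25 ± 0.098 at day 14, neither past the threshold. NDUFB11 overlaps RBM10 in the RefSeq annotation, and the strand setting of the counting is not given in the sources used here.

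NDUFS4 and NDUFB11 share a feature at their starts. The bases ATGGCGGC, the core of TISU, a translation initiator element known from genes with very short leaders and from many mitochondrial genes, were searched on the transcribed strand in the 50 bases after the start that RefSeq's promoter entry uses, which for NDUFB11 lies inside the annotated gene and not at its outer end. The motif was chosen after these data had been seen. The bases were found in 9 of the 65 members with an entry (13.8%), against 2.75% of 15843 genes. The 9 were NDUFA9, NDUFA13, NDUFB11, NDUFS3, NDUFS4, NDUFS6, SDHB, UQCR10 and UQCRC1. Their RNA differences ran from -0.45 to 0.21 at day 3 (median -0.083) and from -0.44 to 0.069 at day 14 (-0.12). Those of the 56 other members with an entry ran from -0.44 to 0.28 (-0.0026) and from -0.35 to 0.20 (-0.079). Among the 9, only NDUFS4 and NDUFB11 passed in RNA between the guides. Whether the motif bears on these values was not tested. Windows of at most 30 bases around the motif are shown for the pair that fell at both days and for SDHB and UQCRC1, which hold it and did not pass; capitals mark the motif (RefSeq, GRCh38.p14).
NDUFS4, chr5:53560649-53560678, plus strand: ttgcctgcagcaagATGGCGGCggtgtcaa
NDUFB11, chrX:47144664-47144693, minus strand: cagcaccatctgtcATGGCGGCtgggctgt
SDHB, chr1:17054004-17054032, minus strand: gtcaggagccaagATGGCGGCggtggtcg
UQCRC1, chr3:48609605-48609634, minus strand: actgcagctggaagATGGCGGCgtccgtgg
The motif began 25, 24, 14 and 27 bases from that start in the order shown.

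NDUFB3 and NDUFB4, also accessory subunits of the membrane arm, fell in RNA at day 14. NDUFB3 had 46.1 and 41.3 CPM in sgDDX3 cells, against 54.4 and 55.0 CPM in sgGal4 cells (log2 difference -0.32 ± 0.086, adjusted p = 0.0142), and NDUFB4 had 47.4 and 46.0 CPM in sgDDX3 cells, against 62.6 and 57.5 CPM in sgGal4 cells (-0.35 ± 0.095, adjusted p = 0.0142). Neither pair of groups overlapped, and at day 3 both genes already lay lower without passing, at -0.23 ± 0.082 and -0.25 ± 0.091. At day 0 NDUFB4 RNA was also lower without overlap, with means of 57.7 CPM in sgDDX3 cells, against 64.6 CPM in sgGal4 cells (-0.16 ± 0.090). NDUFB3 RNA overlapped at that day (-0.014 ± 0.082). Day 14 footprints of both were lower without overlap and did not pass, with 93.9 and 114 CPM in sgDDX3 cells, against 119.8 and 145 CPM in sgGal4 cells for NDUFB3 (adjusted p = 0.111), and 147 and 139.8 CPM in sgDDX3 cells, against 180.1 and 169 CPM in sgGal4 cells for NDUFB4 (adjusted p = 0.0853). The NDUFB3 call was not kept without sgDDX3 replicate 2 or either sgGal4 library (0.00786 to 0.115 over the alternatives), and the NDUFB4 call without sgGal4 replicate 1 (0.00231 to 0.11).

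NDUFS1, the large iron-sulfur core subunit of the matrix arm, went the other way. Its RNA at day 3 was 152 and 161 CPM in sgDDX3 cells, against 127 and 131 CPM in sgGal4 cells, without overlap (log2 difference 0.28 ± 0.070, adjusted p = 0.00976), and at day 14 164 and 150.5 CPM in sgDDX3 cells, against 140.1 and 135 CPM in sgGal4 cells (0.20 ± 0.071, adjusted p = 0.0672, not past the threshold). Footprints at day 3 were 158 and 174 CPM in sgDDX3 cells, against 136 and 127 CPM in sgGal4 cells, again without overlap, and did not pass (0.34 ± 0.11, adjusted p = 0.109). The RNA call was not kept without sgDDX3 replicate 2 or sgGal4 replicate 1 (0.00313 to 0.0949 over the alternatives).

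NDUFA5, an accessory subunit of the matrix arm near the ubiquinone site, rose in footprints at day 3, with 136 and 129 CPM in sgDDX3 cells, against 100.3 and 104 CPM in sgGal4 cells (log2 difference 0.37 ± 0.087, adjusted p = 0.0336). The guides did not overlap, while at day 0 the sgDDX3 libraries lay lower, at 105 and 110.1 CPM in sgDDX3 cells, against 112 and 122 CPM in sgGal4 cells. Its RNA overlapped at day 3 (0.094 ± 0.081). The call was not kept without any single library of the comparison, without the filter on low counts, and when the counts of its 12 annotated pseudogene copies, equal to 34.8% of its own footprints, were added to it (adjusted p = 0.0548; 0.0315 to 0.254 over all alternatives). The lowest values of complex I were those of NDUFV2, an iron-sulfur core subunit, in footprints, at -1.18 ± 0.43 at day 3 and -0.67 ± 0.32 at day 14. They rest on very few counts, with 0.842 and 0.949 CPM in sgDDX3 cells, against 1.85 and 2.32 CPM in sgGal4 cells at day 3, and did not pass. The highest complex I value in RNA at day 14 was that of NDUFS1, and in footprints at day 14 that of NDUFA13 (0.28 ± 0.27, adjusted p = 0.657).

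**Figure D3:**
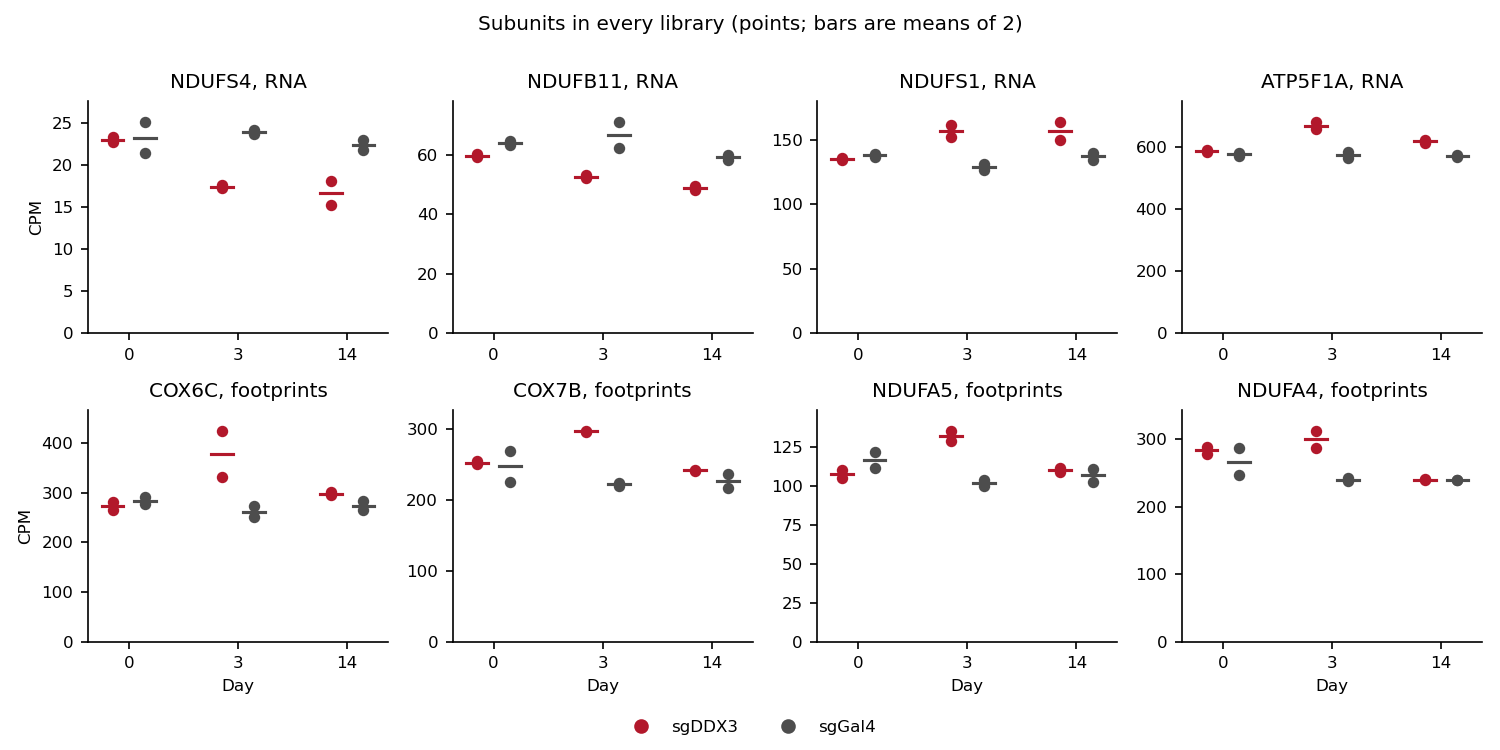
CPM of named members in every library by day: RNA of NDUFS4, NDUFB11, NDUFS1 and ATP5F1A (top), and footprints of COX6C, COX7B, NDUFA5 and NDUFA4 (bottom); points are libraries, sgDDX3 left of sgGal4, and bars are means of 2. NDUFS4 RNA lies at 17.6 and 17.3 CPM in sgDDX3 cells at day 3, below all 4 sgGal4 libraries of days 3 and 14.

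No subunit of complex II, the succinate dehydrogenase, passed in any comparison of the guides. SDHA, the flavoprotein that oxidises succinate, had, in footprints at day 14, 167 and 164 CPM in sgDDX3 cells, against 144 and 133 CPM in sgGal4 cells, without overlap, and its log2 difference of 0.26 ± 0.089 was the highest of the complex (adjusted p = 0.142). SDHC, a membrane anchor, was the lowest, at -0.26 ± 0.089, with 89.8 and 90.7 CPM in sgDDX3 cells, against 115 and 102 CPM in sgGal4 cells (adjusted p = 0.135). SDHB, the iron-sulfur subunit, had the lowest RNA value at day 14, -0.26 ± 0.11, with 35.8 and 43.0 CPM in sgDDX3 cells, against 45.0 and 49.1 CPM in sgGal4 cells (adjusted p = 0.129). At day 3 the RNA values ran from -0.12 ± 0.074 in SDHC to 0.015 ± 0.10 in SDHD, the other anchor, and the footprint values from 0.059 ± 0.090 in SDHC to 0.21 ± 0.090 in SDHA.

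In complex III, the cytochrome bc1 complex, UQCRC2 was the only subunit to pass between the guides. UQCRC2, a core protein facing the matrix, fell in RNA at day 3 to 122 and 125 CPM in sgDDX3 cells, against 143 and 145 CPM in sgGal4 cells, without overlap (log2 difference -0.22 ± 0.066, adjusted p = 0.0311). The call was not kept without the low-count filter and without any 1 of the 4 libraries (0.018 to 0.16 over the alternatives), and the gene overlaps PDZD9 in the annotation. Its partner core protein UQCRC1 lay on the other side, with 166 and 181 CPM in sgDDX3 cells, against 149 and 150.4 CPM in sgGal4 cells (0.21 ± 0.074, adjusted p = 0.0636), while its footprints were lower, at 224 and 226 CPM in sgDDX3 cells, against 241 and 246 CPM in sgGal4 cells (-0.12 ± 0.087, adjusted p = 0.532). Both measures of UQCRC1 were free of overlap, and the efficiency difference of -0.35 ± 0.11 was the lowest of the complex, without passing (adjusted p = 0.0703). The highest footprint values of complex III were those of the small subunit UQCR11, at 0.49 ± 0.21 at day 3 and 0.62 ± 0.21 at day 14 (adjusted p = 0.222 and 0.131). UQCR11 has few footprints, with 6.88 and 6.77 CPM in sgDDX3 cells, against 4.53 and 4.33 CPM in sgGal4 cells at day 14. The lowest at day 14 was the hinge protein UQCRH, at -0.067 ± 0.085, and in RNA at day 14 UQCRC2 (-0.13 ± 0.068), with UQCRC1 the highest (0.069 ± 0.075).

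Complex IV, cytochrome c oxidase, gave 2 of the 3 footprint calls at day 3, or 18.2% of its 11 subunits, where 3.8% of all genes passed. COX6C, a small subunit that crosses the membrane, had 332 and 425 CPM in sgDDX3 cells, against 251 and 272 CPM in sgGal4 cells; the 4 libraries of day 0 lay at 266 to 291 CPM. Both sgDDX3 libraries were above both controls, and replicate 2 stood well above replicate 1. The log2 difference was 0.53 ± 0.11 (adjusted p = 0.02); without sgDDX3 replicate 2 it was 0.34 (adjusted p = 0.114), and the call was also not kept without either sgGal4 library (0.000562 to 0.194 over the alternatives). Its RNA, 73.8 and 81.7 CPM in sgDDX3 cells, against 71.4 and 76.8 CPM in sgGal4 cells, overlapped, and its efficiency difference of 0.45 ± 0.13 was just short of the threshold (adjusted p = 0.0514). At day 14 its footprints were 301 and 295 CPM in sgDDX3 cells, against 265 and 282 CPM in sgGal4 cells (adjusted p = 0.63).

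COX7B, another small membrane subunit, had, in footprints at day 3, 297 and 298 CPM in sgDDX3 cells, against 225 and 221 CPM in sgGal4 cells, with replicates that differed little and no overlap (log2 difference 0.42 ± 0.095, adjusted p = 0.0309). The call was not kept without any 1 of the 4 libraries (0.0111 to 0.194 over the alternatives), while the size stayed between 0.36 and 0.42. Its RNA overlapped at day 3 (0.065 ± 0.11) and at day 14 (-0.18 ± 0.12). NDUFA4 lay next, with 312 and 287 CPM in sgDDX3 cells, against 242 and 238 CPM in sgGal4 cells in footprints at day 3, free of overlap but not past the threshold (0.32 ± 0.092, adjusted p = 0.0735). Its footprint difference at day 14 was 0.0032 ± 0.092, and in RNA it was 0.048 ± 0.082 at day 3 and -0.19 ± 0.084 at day 14; the day 14 RNA value passed without sgDDX3 replicate 2 (-0.33, adjusted p = 0.00739; 0.00739 to 0.73 over the alternatives).

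Of the 11 complex IV subunits, 10 were higher without overlap in day 3 footprints (25.4% of all genes), the exception being COX8A (-0.045 ± 0.13), whose guides overlapped. COX4I1, which joins the catalytic core early in assembly, had 377 and 396 CPM in sgDDX3 cells, against 348 and 360.1 CPM in sgGal4 cells (0.13 ± 0.091, adjusted p = 0.504) and did not pass in any comparison of the guides. In RNA at day 14, all 11 subunits lay below 0, 6 of them without overlap (25.6% of all genes). They ran from -0.22 ± 0.078 in COX7C (edgeR adjusted p = 0.0694) to -0.0075 ± 0.083 in COX6C. None passed (edgeR, with 3 at an unadjusted p under 0.05 and 0 by DESeq2). At day 0, 9 of the 11 already lay below 0 in RNA, and 5 were lower without overlap (19.2% of all genes). In day 14 footprints COX7C was again the lowest (-0.14 ± 0.086) and COX6C the highest (0.12 ± 0.11). In RNA at day 3 the range was -0.12 ± 0.077 in COX8A to 0.079 ± 0.070 in COX4I1.

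In ATP synthase, RNA of 1 subunit of the catalytic F1 head rose at day 3, and that of 3 subunits of the membrane part or stalk fell at day 14. These are 5.88% and 17.6% of the 17 tested, where 14.1% and 14.6% of all genes passed. ATP5F1A, the alpha subunit of the head, rose in RNA at day 3, with 659.6 and 682 CPM in sgDDX3 cells, against 566 and 585 CPM in sgGal4 cells, without overlap (log2 difference 0.22 ± 0.060, adjusted p = 0.0154). The call was not kept without sgDDX3 replicate 2 or either sgGal4 library (0.0025 to 0.118 over the alternatives). At day 14 it was 0.12 ± 0.060 in RNA and 0.19 ± 0.11 in footprints, the highest of the complex in both and not past the threshold. ATP5F1B, the beta subunit that holds the catalytic sites, had, in RNA at day 3, 927 and 977 CPM in sgDDX3 cells, against 851 and 904 CPM in sgGal4 cells and 1591 and 1590 CPM in sgDDX3 cells, against 1411 and 1430 CPM in sgGal4 cells in footprints. Neither set overlapped and neither passed (0.12 ± 0.060 and 0.16 ± 0.090, adjusted p = 0.215 and 0.36); at day 14 the differences were 0.0068 ± 0.060 and 0.054 ± 0.090.

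The 3 ATP synthase subunits that fell in RNA at day 14 belong to the membrane part or the stalk, as do most subunits of the complex that were tested. ATP5PB, subunit b of the peripheral stalk, had 137 and 155 CPM in sgDDX3 cells, against 174 and 184 CPM in sgGal4 cells (-0.29 ± 0.082, adjusted p = 0.0188), and the call was not kept without sgDDX3 replicate 1 or sgGal4 replicate 2 (0.00174 to 0.184 over the alternatives). ATP5MJ, a small proteolipid of the membrane part, had 41.2 and 47.5 CPM in sgDDX3 cells, against 58.6 and 51.5 CPM in sgGal4 cells (-0.30 ± 0.097, adjusted p = 0.0407). Its call was lost by DESeq2 and without sgDDX3 replicate 1 or either sgGal4 library (0.0111 to 0.276). Footprints of both overlapped at day 14, at 0.0043 ± 0.092 and 0.032 ± 0.12, and were higher without overlap at day 3, at 0.25 ± 0.093 and 0.27 ± 0.12, without passing. The lowest footprint values were those of ATP5PO, the stalk subunit that confers oligomycin sensitivity, at -0.043 ± 0.10 at day 3 and -0.19 ± 0.10 at day 14, and the highest at day 3 was that of ATP5MF (0.31 ± 0.10, adjusted p = 0.11). ATP5MC1 had the lowest RNA value at day 3 (-0.11 ± 0.086).

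ATP5MC1, ATP5MC2 and ATP5MC3 encode the same mature subunit c, the ring that turns in the membrane, with different import sequences. ATP5MC2 fell in RNA at day 14, with 188 and 203 CPM in sgDDX3 cells, against 240.3 and 229 CPM in sgGal4 cells, without overlap (-0.26 ± 0.071, adjusted p = 0.0149); the call was not kept without sgDDX3 replicate 1 or either sgGal4 library (0.00409 to 0.121 over the alternatives). ATP5MC1 had 66.8 and 60.8 CPM in sgDDX3 cells, against 64.9 and 64.0 CPM in sgGal4 cells and ATP5MC3 314 and 229.9 CPM in sgDDX3 cells, against 274 and 253 CPM in sgGal4 cells, both overlapping (-0.012 ± 0.089 and 0.05 ± 0.11). In footprints at day 3, ATP5MC3 had 659.8 and 760.0 CPM in sgDDX3 cells, against 572 and 627 CPM in sgGal4 cells (0.24 ± 0.10) and ATP5MC1 143 and 148 CPM in sgDDX3 cells, against 126 and 134 CPM in sgGal4 cells (0.16 ± 0.095), both free of overlap, while ATP5MC2 overlapped at 509.6 and 493 CPM in sgDDX3 cells, against 507 and 499 CPM in sgGal4 cells (-0.0055 ± 0.11). None of these footprint differences passed, and the differences between the 3 genes were not tested.

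The footprints of a gene were also set against its own RNA. In sgGal4 cells at day 0, the ratio of footprint CPM to RNA CPM had a median of 1.65 over 77 members, and 62 of them were above 1, while the median over all 14853 genes tested was 0.812. By complex the medians were 1.90 for complex I, 1.15 for complex II, 1.28 for complex III, 2.17 for complex IV and 1.58 for complex V. NDUFB6 was highest, at 4.99, and UQCR11 lowest, at 0.105, with NDUFA13 at 0.114 and SDHD at 0.242. In each of the other 5 guide and day groups UQCR11 was between 0.0609 and 0.111, and NDUFB6 between 4.83 and 5.88. The ratio of COX6C was 4.87 in sgDDX3 cells at day 3, against 3.53 in sgGal4 cells, and between 3.41 and 4.14 in the other groups. These ratios rest on means of 2 libraries per assay, which are not known to be paired, and carry no error. They were not corrected for coding length, and the 14853 genes were not limited to coding genes. Ranks between genes and the distance from the median of all genes are thus description only.

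**Figure D4:**
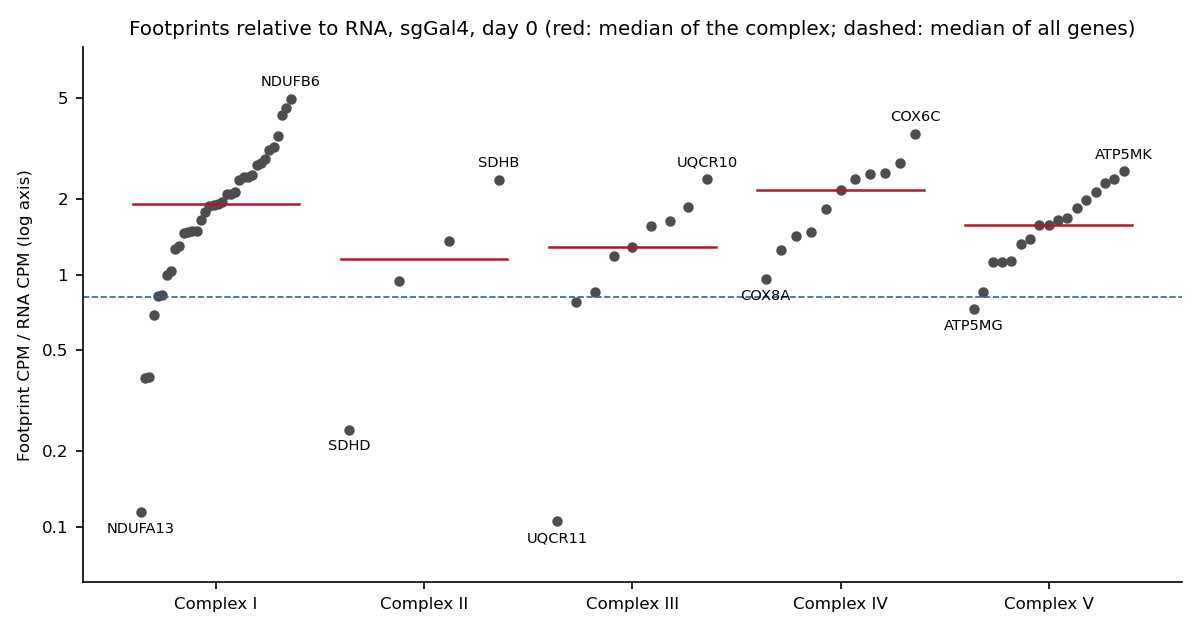
Footprint CPM over RNA CPM (log axis) for each of 77 members in sgGal4 cells at day 0, by complex, ranked within the complex; red bars are complex medians, the dashed line is the median of all genes tested, and the lowest and highest member of each complex is named. Most members lie above the dashed line at 0.812, with UQCR11 at 0.105 and NDUFB6 at 4.99 as the ends of the range.

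These ratios are touched by pseudogene copies and overlapping genes. The table lists 189 pseudogene copies of 50 members, whose counts came to 1.93% of the members' counts in RNA and 8.6% in footprints. For SDHD the copies held 337% of the gene's own footprints and 25.3% of its RNA. For NDUFV2, NDUFV2P1 held 26.7 CPM of footprints, against 2.05 CPM of the gene itself. ATP5F1EP2 had 124 CPM of footprints and 0.241 CPM of RNA, and COX6A1P2 had 126 CPM of footprints and 26.9 CPM of RNA. How reads that match several places were counted is not given in the sources used here, so the values of these genes are uncertain. With the copies added to their genes, a fit chosen after the data had been seen, COX6C and COX7B still passed in day 3 footprints, and the members' median was 0.11. Another coding gene overlaps 18 members, among them ATP5F1B (BAZ2A) and ATP5PF (GABPA).

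The days were also compared within sgGal4 cells. Whether day 0 cells had received doxycycline is not stated, so time and the drug cannot be told apart here. In sgGal4 cells, 8 subunits fell in RNA at day 14 against day 0. They were SDHD, NDUFA5, COX5A, COX7B, ATP5F1C, ATP5MC1, ATP5PF and ATP5PO, and none rose. These 8 are 10.3% of the members, while 16.2% of all genes passed, and the median was -0.092 over the members and 0.0087 over all genes. SDHD had 26.9 and 29.9 CPM at day 14, against 41.6 and 41.4 CPM at day 0 (log2 difference -0.53 ± 0.10, edgeR adjusted p = 0.00138), and passed in all 10 alternatives. The other 7 ran from -0.39 (COX7B) to -0.24 (COX5A). Fewer members passed without any 1 of the 4 libraries, with the counts over all genes in those fits not given. From day 0 to day 3 only SDHD passed (-0.36; 1.28% of the members, where 5.68% of all genes passed, 2.27% as lower), and that call was not kept without any 1 of the 4 libraries and with the replicate block (0.0185 to 0.273 over the alternatives).

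In sgGal4 footprints, 70 of 78 members lay lower at day 14 than at day 0, with a median of -0.14 over the members and -0.0094 over all genes, and 44 were lower without overlap (23.4% of all genes). UQCRQ, UQCR11 and NDUFS6 fell (3.85% of the members, 2.47% of all genes). UQCRQ had 120.2 and 118 CPM at day 14, against 161 and 155 CPM at day 0 (log2 difference -0.41 ± 0.089, edgeR adjusted p = 0.0331). None of the 3 calls was kept without any 1 of the 4 libraries (0.00569 to 0.199 over the alternatives for UQCRQ, and 0.00858 to 0.25 for UQCR11, which DESeq2 did not call). From day 0 to day 3 none passed (edgeR; 9 at an unadjusted p under 0.05, 0 by DESeq2; 1.26% of all genes). Day 3 footprints of all members in sgGal4 cells, at 14347 and 14554 CPM, were below the 15086 and 15372 CPM of day 0, while in sgDDX3 cells the 15841 and 16197 CPM of day 3 were above the 14895 and 14936 CPM of day 0.

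Other genes of the pathway were measured in the same fits. Of the 13 mitochondrially encoded subunits, 5 rose in RNA at day 14 (MT-ND1, MT-ND2, MT-ND3, MT-ATP6 and MT-ATP8) and none fell, where 8.44% of all genes passed as higher. MT-ND2, of the membrane arm of complex I, had 2155 and 2906 CPM in sgDDX3 cells, against 1373 and 1673 CPM in sgGal4 cells (log2 difference 0.73 ± 0.12, edgeR adjusted p = 0.000314). The sum of all 13 overlapped at that day, at 53450 and 71670 CPM in sgDDX3 cells, against 59430 and 65890 CPM in sgGal4 cells. At day 0 the RNA differences of the 13 ran from -0.104 to 0.497, with a median of 0.040. In footprints at day 3 only MT-ND4L passed, and rose (0.38 ± 0.096, edgeR adjusted p = 0.0442), where 1.55% of all genes passed as higher. The median was 0.32 over the 13 and 0.021 over all genes. The 13 summed to 29110 and 26600 CPM in sgDDX3 cells, against 22620 and 24850 CPM in sgGal4 cells. These transcripts are read by mitochondrial ribosomes, not by those of the cytosol.

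Of 50 assembly factors tested, 2 rose and 6 fell in RNA at day 3, with a median of -0.10, and 2 rose and 3 fell at day 14, with a median of -0.11, where 14.1% and 14.6% of all genes passed, so that neither count is read as a result about the list. The lower ones at day 3 were CMC2, a factor for complex IV (-0.40 ± 0.087), SDHAF3, UQCC2, LYRM7, COA1 and NDUFAF3. UQCC2, which acts in cytochrome b synthesis for complex III, fell at both days, to 42.8 and 44.1 CPM in sgDDX3 cells at day 3, against 51.7 and 54.2 CPM in sgGal4 cells, and to 43.4 and 41.5 CPM in sgDDX3 cells at day 14, against 54.8 and 55.0 CPM in sgGal4 cells. In footprints none passed at day 3 (0 by edgeR), and at day 14 only TTC19, a factor for complex III, rose (0.45 ± 0.11, adjusted p = 0.0368). Among 7 isoforms and carriers tested, NDUFA4L2 fell in RNA at day 14, with 2.46 and 2.98 CPM in sgDDX3 cells, against 4.81 and 5.85 CPM in sgGal4 cells (-1.01 ± 0.21, adjusted p = 0.00251).

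Among 13 regulators of mitochondrial genes tested, YY1 and ESRRA rose in RNA at both days, where 14.1% and 14.6% of all genes passed, so that the count is not read as a result about the list. YY1, a zinc finger transcription factor known to act on mitochondrial genes, had 155.5 and 152 CPM of RNA in sgDDX3 cells at day 3, against 111 and 114 CPM in sgGal4 cells, and 63.5 and 60.6 CPM of footprints in sgDDX3 cells, against 89.2 and 78.5 CPM in sgGal4 cells. Its RNA thus rose (0.46 ± 0.070, edgeR adjusted p = 0.000131) while its footprints fell (-0.44 ± 0.11, adjusted p = 0.0405), and its efficiency fell at day 3 (-0.92 ± 0.12, adjusted p = 1.23e-05) and day 14 (-0.47 ± 0.12, adjusted p = 0.0382). ESRRA, the estrogen-related receptor alpha, had 65.7 and 77.8 CPM of RNA in sgDDX3 cells at day 3, against 49.9 and 44.9 CPM in sgGal4 cells, and 23.6 and 22.0 CPM of footprints in sgDDX3 cells, against 26.4 and 24.6 CPM in sgGal4 cells, which lay lower without passing. Its efficiency fell at day 3 (-0.77 ± 0.19, adjusted p = 0.0152). LRPPRC, which binds mitochondrial mRNAs, fell in RNA at day 14 (-0.22 ± 0.069, adjusted p = 0.0367). Whether these factors bear on the subunits was not tested.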

How the data were processed

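The tables the authors deposited, 1 for RNA and 1 for footprints, hold raw counts per gene as whole numbers. Per the labels' protocols, RNA came from Triton lysates of the cytosol and went through ribosomal RNA depletion before directional library making, and footprints were cut with RNase I from ribosomes fixed with cycloheximide. The tools named, per the submitters' processing notes, are STAR 2.7.5a, Bowtie2 2.4.1, cutadapt 3.4 and DESeq2, with the build GRCh38. The counting tool, annotation, strand setting and treatment of reads with several matches were not given in the sources used here.

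From 58037 rows, 45 pseudoautosomal copies were left out. In R 4.3.3, edgeR 4.0.16 scaled counts by the trimmed mean of M values, kept genes by its filter with a minimum count of 10 and ran its quasi-likelihood F-test with all 12 libraries of an assay (24 for translational efficiency, tested as an interaction), since 2 libraries give no usable spread by themselves. P-values were adjusted by Benjamini-Hochberg over all genes tested, and a gene passed at 0.05; DESeq2 1.42.0 was an alternative. CPM are counts per 1e+06 of the scaled library. Coding lengths were not used here, so the planned levels per codon were not computed. Levels were not compared between genes, and the ratio of footprints to RNA was ranked between genes as a description only. A count of 0 allows up to 3 counts, 0.207 CPM in the median RNA library and 0.316 CPM in the median footprint library, which covers counting error only.

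The members, gene lists and alternatives were chosen with earlier results of these data known. Named were members that passed, the highest and lowest of each complex in RNA and footprints at days 3 and 14, the 3 marker genes, the 3 genes of subunit c and up to 4 genes of each other list by smallest p, with a few further ones chosen after their values were seen. The fits were tested on simulated data with known changes in genes drawn at random. At a 1.25-fold change they recovered 16.7% of the changed genes in RNA, 2.99% in footprints and 1.56% in efficiency. At a 2-fold change the shares were 78.8%, 65.2% and 57.8%. The simulated data had a common spread per assay and gave 108 calls in RNA at day 3, against 2574 in the real data. These shares thus do not carry over to the members, and a member that did not pass may still differ. Of the erythroid markers, 1 is not reported here.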

Additional observations from a re-analysis of the deposited data

How the results depend on the processing

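Counts of members that passed were recomputed with DESeq2's size factors, without the low-count filter, with DESeq2, with a newer edgeR fit, with the replicate number as a block, with pseudogene copies added to their genes (chosen after seeing the data) and without each library in turn. Without the filter, 1 member passed in footprints between the guides at day 14, 4 in sgGal4 RNA at day 3 against day 0, 1 in sgGal4 footprints at day 3 and 5 at day 14. In efficiency at day 3, 1 member passed with DESeq2's size factors, 1 with DESeq2 and 1 with the replicate block. With the block 0 passed in sgGal4 RNA at day 3 against day 0, and 2 with the copies added. Apart from that count and the efficiency count at day 3, the block moved no count by over 1.5 times. The same-numbered libraries of the 2 guides had deviations from their group means that correlated with r of -0.16, 0.189 and 0.359 in RNA and 0.159, 0.134 and -0.0844 in footprints at days 0, 3 and 14, of both signs, and the labels name no shared culture or batch, so the numbers were not taken to pair the libraries. Without single libraries, the counts between the guides were 2 to 6 in RNA at day 3, 1 to 18 at day 14, 0 to 1 in footprints at day 3, 0 to 2 in efficiency at day 3 and 0 to 1 at day 14, and 0 to 1 for the change in RNA between days 3 and 14. In sgGal4 they were 0 to 1 in RNA at day 3, 1 to 5 at day 14 and 0 to 2 in footprints at day 14. The counts over all genes in most of these fits are not given, so the members' counts are not read as a result about the members. Fits without a library assume that the remaining one varies like the other groups, and the cause of the changes was not tested. Of 780 values of named members under an alternative, 83 no longer passed, 1 newly passed and none that passed changed sign. Most of these 780 values belong to NDUFA4, COX4I1 and ATP5F1B, which passed in no main fit and so had no call to lose. The 83 lost calls are thus a larger share of the values that could be lost. The DESeq2 scaling moved the median of all genes by at most 0.0135 (log2). The median library held 9483039 counts in footprints and 14520594 in RNA, and the fitted coefficient of variation between libraries was 9.989% in footprints and 6.125% in RNA; their part in the number of calls was not tested.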
